A study of Mus musculus with 5 samples.

Results

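This comparison sets cardiac progenitor cells positive for Nkx2.5 (gene Nkx2-5), taken from mouse embryoid bodies at day 7.5, against early mesodermal cells positive for Bra (brachyury, gene T), taken at day 4.5. It was chosen by its title and is 1 array of the 5 in the series, with 28845 probes that stand for 14959 named genes and 9840 unnamed transcripts. Embryoid bodies are aggregates of stem cells in which early lineages form in culture, here followed as a model of heart formation. RNA of the Nkx2.5 cells was labelled with Cy5 and RNA of the Bra cells with Cy3 on the same array, so every log2 ratio below is Nkx2.5 over Bra and a positive value is a higher signal in the Nkx2.5 cells. The labels say neither how positive cells were selected nor from which stem cell line they came. The other groups used here are Rex1-expressing undifferentiated stem cells (gene Zfp42) of day 0 and cardiac mesodermal cells positive for Flk1 (gene Kdr) at day 4.5, each hybridised against the Bra or the Nkx2.5 cells on other arrays. Population and day change together, so a difference of cell type and a difference of culture time cannot be told apart, and in bulk RNA neither can fewer cells of a type and less RNA per cell.

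Brachyury marks the primitive streak and the mesoderm that has just left it, under the control of Wnt, Nodal and FGF signals. Mesoderm fated to the heart then switches these genes off, passes through a multipotent stage and starts the cardiac programme, in which the homeobox factor Nkx2-5 acts with GATA, T-box and MEF2 factors. The sarcomere genes that follow encode the thick filament of myosin, the thin filament of actin, tropomyosin and troponin, and the Z-disc that anchors it.

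Each pair of populations was hybridised on 1 array with no exchange of dyes and no replicate sample, so values carry no replicate spread and a difference could not be tested. A second reading of the same comparison came from 2 other arrays, as the log2 ratio of Nkx2.5 over Rex1 minus that of Bra over Rex1. Over the named genes the gap between both readings had an SD of 0.376 (log2), which corresponds to an error of 0.217 for a single array if the 3 arrays err equally and independently. The gap was wider for dim genes: its SD was 0.494 in the dimmest of 3 equal groups of genes, 0.371 in the middle group and 0.206 in the brightest. On the direct array itself the log2 ratios of named genes had an SD of 0.252, with the outermost 1% on each side beginning at -0.61 and 0.75. A gene is called higher or lower below where the direct and the second value each reached 1 on the log2 scale (2-fold) in the same direction and the brighter population stood well above background, that is, above percentile 95 of 96 negative control spots. The median net signal of the probes was 6227.5 in the Nkx2.5 channel and 6668.5 in the Bra channel, against 1121.2 and 1695.0 for the negative control spots, and 92.2% and 90.2% of probes stood well above background.

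Of the 14959 named genes 53 (0.354%) were called higher in the Nkx2.5 cells and 12 (0.0802%) were called lower. The higher genes were led by the sarcomere genes Myl7 and Tnnt2, by embryonic and adult globins and by secreted products of the yolk sac and liver type, such as Spink1, Afp and Ttr. The lower genes held the streak genes Fgf8, Mixl1 and Sp5, the pluripotency genes Nanog and Dppa2, the epiblast gene Otx2, the activin inhibitor gene Fst and the interferon-regulated genes Irf1 and Gbp2. On the direct array 8 of the 53 exceeded 4-fold and all 12 lower genes lay between 2-fold and 3-fold, with medians of 1.42 and -1.13. The second reading did not show this asymmetry, with medians of 1.56 and -1.63. On the direct array alone 78 named genes reached a log2 ratio of 1 and 25 reached -1. The second reading held for 53 of the former and 12 of the latter, and it lay on the other side of 0 for 0 of the 78 and 0 of the 25. By the same rule 30 genes were higher in the authors' deposited table, 29 of them among the 53, and 3 were lower, 0 of them among the 12. Without any background correction 3 genes were higher, all of them among the 53, and 0 were lower.

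**Figure D1:**
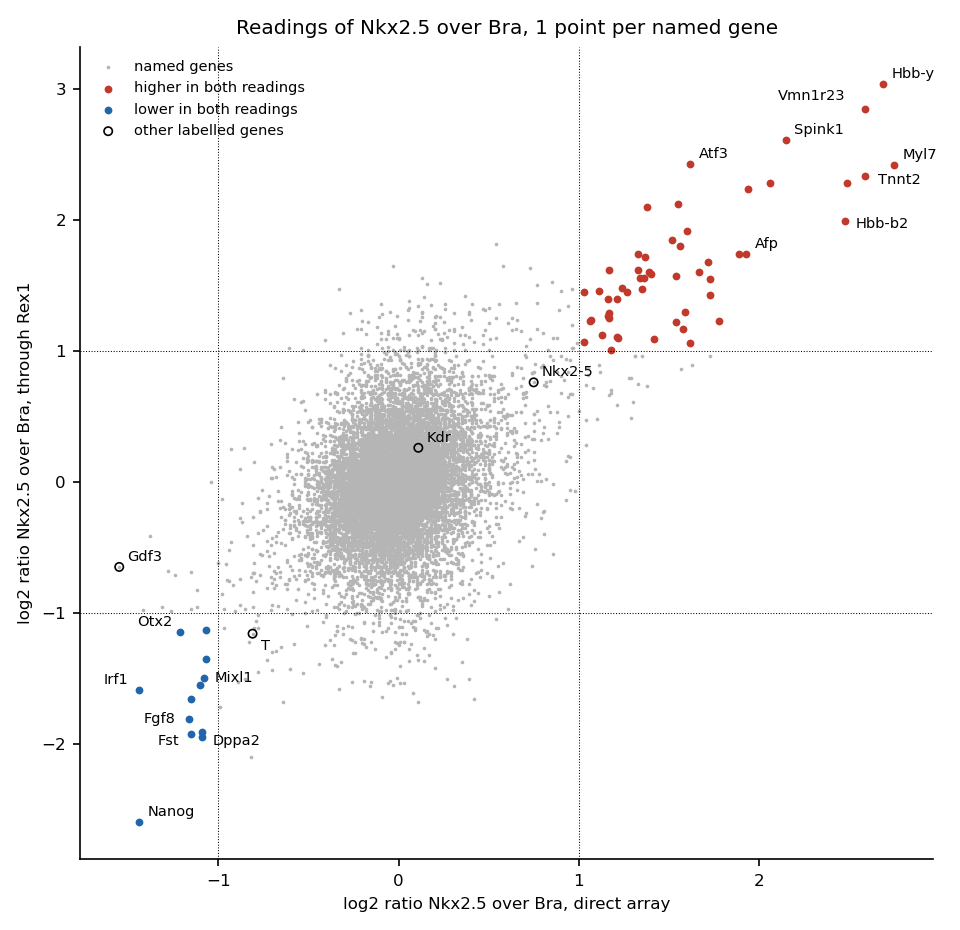
Each point is a named gene, with the log2 ratio of Nkx2.5 over Bra on the direct array on the x axis and the log2 ratio obtained through Rex1 on the y axis; dotted lines mark log2 ratios of 1 and -1. The 53 red genes lie beyond 1 and the 12 blue genes beyond -1 in both readings, with Myl7 at 2.75 and 2.42 and Nanog at -1.44 and -2.60.

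The genes behind the sort names differed less than the leading sarcomere genes. Nkx2-5 read 8430 in the Nkx2.5 channel and 5014 in the Bra channel (normalised intensity), a log2 ratio of 0.75, with 0.76 in the second reading. The T probe read 8175 in Nkx2.5 and 14349 in Bra, which gave -0.81 and -1.16. Both went the way the labels say in both readings, and neither met the rule in both. Mixl1, a homeobox gene of the streak, read 7553 against 15968 and was called lower at -1.08 and -1.50. Kdr, the receptor gene that names the Flk1 cells, had 0.11 and 0.26. Zfp42, the stem cell marker, had -0.50 directly and 0.06 through Rex1, so the readings did not give it a common direction. Markers of both named populations were therefore on the labelled side, with Tnnt2 at 2.59 and 2.34 and Myl7 at 2.75 and 2.42. Whether a single gene differs beyond the variation between samples could not be tested.

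Contractile genes were among the highest. Myl7, the atrial regulatory light chain of myosin, read 18374 in the Nkx2.5 cells and 2733 in the Bra cells, 6.72-fold higher. It was called under all 11 of the other settings tried for single genes. Some of these could not change the call, because Myl7 has 1 probe, no spot marked Bad and both populations well above background. Tnnt2, cardiac troponin T, read 12233 against 2027, 6.04-fold higher, with 2.59 on the direct array and 2.34 through Rex1. These were the clearest contractile differences, since both channels stood above background and both readings were over 2.

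The 13 measured thin filament genes had a median of 0.42 directly and 0.48 through Rex1, against -0.02 and 0.00 over all named genes. Among them 4 were higher and 0 lower, against 0.354% and 0.0802% of all named genes. Beside Tnnt2 these were Tmod1, which caps the pointed end of actin filaments, at 1.52 and 1.85, Tnnc1, the calcium-binding troponin shared by heart and slow muscle, at 1.39 and 1.60, and Tnni1, the troponin I of slow and embryonic heart muscle, at 1.03 and 1.07. Tnnc1 read 14237 in Nkx2.5 and 5451 in Bra, and Tnni1 read 16588 against 8102. The troponin I of the adult heart, Tnni3, stayed under the limit at 0.59 and 0.49, as did cardiac actin Actc1 at 0.42 and 0.48 and tropomyosin Tpm1 at 0.82 and 0.73. Neb, the nebulin of skeletal muscle, lay on the other side at -0.39 and -0.50, so the list did not move as a block.

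The thick filament list had 1 higher gene, Myl7, among 12 measured (0.354% over all named genes). Its median was 0.32 directly and 0.22 through Rex1. The other light chains missed the rule by their second reading alone: Myl4, the atrial essential light chain, had 1.73 and 0.96, Myl3, the ventricular essential light chain, had 1.63 and 0.89, and Myl2, the ventricular regulatory light chain, had 1.05 and 0.87. Ttn, the giant spring protein titin, missed it on the direct array at 0.96 with 1.20 through Rex1. Myh7, the beta myosin heavy chain, had 0.09 and -0.11. These members were named after their values were seen. Myl10, a light chain gene outside the list, was called higher at 1.33 and 1.74.

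In the Z-disc and intermediate filament list 2 of 14 were higher, against 0.354% of all named genes. Ankrd1, a stretch-responsive protein of the sarcomere and nucleus, read 5746 against 1738 and had 1.72 and 1.68. Csrp3, the muscle LIM protein, had 1.21 and 1.11. Desmin (Des) had 0.95 and 0.67, and alpha-actinin 2 (Actn2) had 0.60 and 0.45. Of the 11 smooth muscle genes 2 were higher (0.354% over all named genes), Acta2 at 1.58 and 1.17 and Tagln at 1.42 and 1.09. Both encode actin cytoskeleton proteins that early heart cells also make. The smooth muscle myosin Myh11 read 0.03 and 0.04 and Cnn1 had 0.18 and 0.55, so neither met the rule. Cnn2 came nearer, higher by 1.70-fold in the smaller reading. The list's medians were 0.09 directly and 0.50 through Rex1, and 9 of its 11 genes lay above 0 in both readings.

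**Figure D2:**
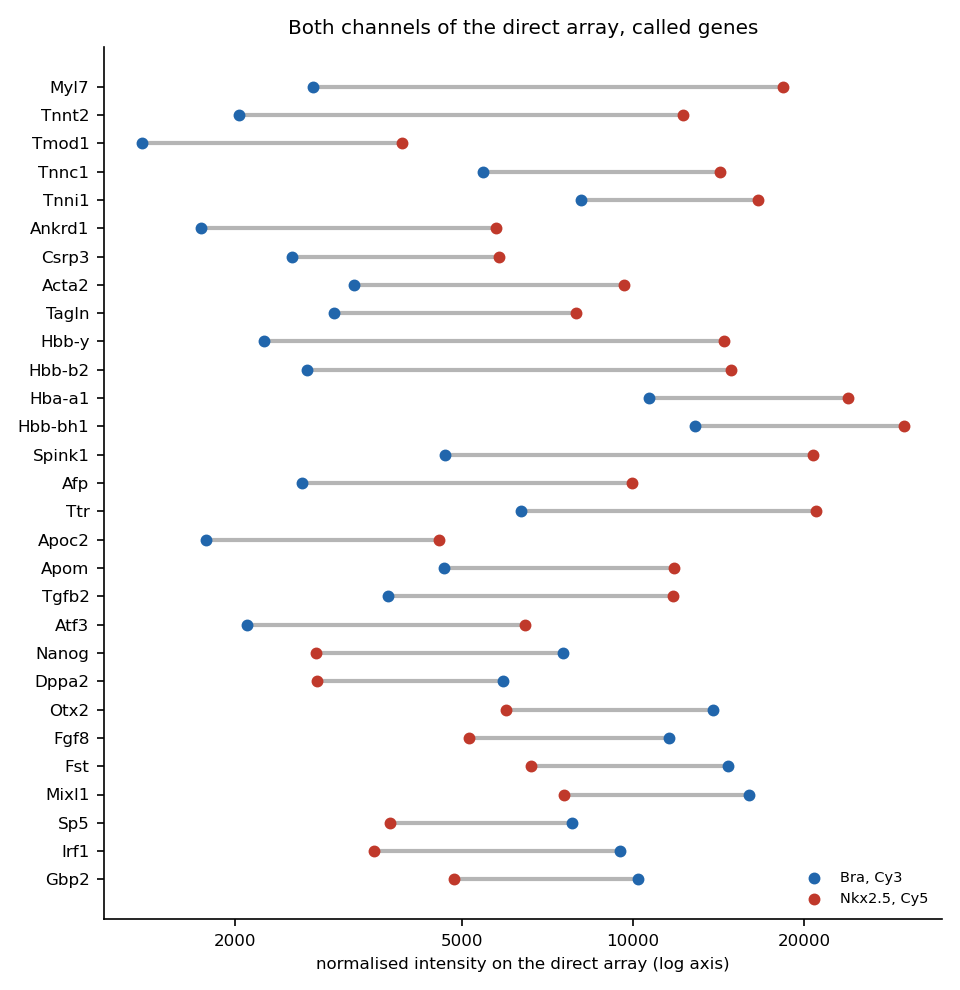
Normalised intensity of called genes in both channels of the direct array (log axis), with the Nkx2.5 cells in red and the Bra cells in blue and 1 line per gene; the intensities of different genes are not comparable. Myl7 lies at 18374 in Nkx2.5 against 2733 in Bra, and at the bottom the order is turned, as for Nanog at 2771 against 7530.

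The promoters of the 3 called contractile genes with the largest direct ratios, Myl7, Tnnt2 and Ankrd1, are shown because these genes were called in the same direction and because sites for cardiac factors can be looked for in them. Each line gives the 250 bases before a RefSeq start site in build GRCm38.p6, 5′ to 3′ along the gene. Capitals mark the motifs searched on both strands: GATAA (GATA factors), TNAAGTG (NK homeobox factors), TCACAC (T-box core), TATAAA, the CArG box of serum response factor and the MEF2 site.
Myl7, chr11:5898783-5899032, minus strand: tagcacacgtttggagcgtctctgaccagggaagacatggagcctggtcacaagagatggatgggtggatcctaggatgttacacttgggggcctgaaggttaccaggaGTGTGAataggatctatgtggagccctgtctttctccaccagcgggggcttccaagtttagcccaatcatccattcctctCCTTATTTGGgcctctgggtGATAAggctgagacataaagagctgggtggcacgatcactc
Tnnt2, chr1:135836084-135836333, plus strand: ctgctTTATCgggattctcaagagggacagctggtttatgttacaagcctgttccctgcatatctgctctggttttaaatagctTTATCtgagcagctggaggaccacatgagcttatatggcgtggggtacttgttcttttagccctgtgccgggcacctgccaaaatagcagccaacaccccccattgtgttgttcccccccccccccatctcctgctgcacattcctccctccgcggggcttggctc
Ankrd1, chr19:36119845-36120094, minus strand: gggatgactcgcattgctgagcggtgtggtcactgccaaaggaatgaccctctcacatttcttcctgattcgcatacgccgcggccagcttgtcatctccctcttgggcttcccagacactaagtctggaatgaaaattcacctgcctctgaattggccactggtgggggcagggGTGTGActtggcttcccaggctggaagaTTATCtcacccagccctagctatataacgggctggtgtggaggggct
The Myl7 window held a CArG box, a GATAA and a reversed TCACAC. Tnnt2 held GATAA reversed at 2 places, and its other RefSeq window held none of the motifs. Ankrd1 held a reversed GATAA and a reversed TCACAC. None of these capitals overlapped another motif.

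Of the 53 higher genes 38 had a promoter in the table, with 52 windows. GATAA was in 18 of these windows (34.6%), from 17 genes, against 22.6% of all 32851 windows. It was in 5 of the 13 windows of lower genes (38.5%), from 3 of 8 genes, with several of these windows from Otx2 alone. TNAAGTG was in 9.62% of the windows of higher genes and 10.1% of all windows, TCACAC in 11.5% and 12.3%, TATAAA in 11.5% and 12.4%, the CArG box in 1.92% and 1.47%, and the MEF2 site in 1.92% and 2.92%. These are matches of letters, with no measurement of binding in this series.

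None of the 23 cardiac transcription factors measured was called in either direction on its brightest probe, a count that a list of this size would mostly give at shares of 0.354% and 0.0802% over all named genes. Their median was 0.09 directly and 0.11 through Rex1. The furthest were Isl1, the second heart field factor, at 0.92 and 0.78, and Nkx2-5 itself. Gata4 was not well above background in the Bra cells on either of their arrays, and its spots were marked Bad on both Rex1 arrays, so no ratio is given for it. Tbx5 had 0.19 and 0.07, Mef2c had 0.04 and 0.20, and Hand2 had 0.48 and 0.02. Of 19 genes for calcium handling, conduction and natriuretic peptides 0 were called, which the same shares would mostly give. Atp2a2 (the calcium pump SERCA2) had 0.00 and 0.13, and Pln (phospholamban) had 0.34 and 0.26. Nppa (atrial natriuretic peptide) was not well above background in the Bra cells on either array. Cardiac and lateral mesoderm genes gave 0 calls among 15, again a count that these shares would mostly give. Mesp1, an early marker of cardiac mesoderm, had -0.34 and -0.36 and Bmp4 had 0.71 and 1.04. A value near 0 here bounds the ratio only as far as the array error and the probe allow, as the probe pairs below show.

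Genes of blood and of endoderm were among the higher genes as well. The red cell lineage gave 5 of 21 genes higher, against 0.354% of all named genes. Among the 5 were the embryonic beta globins Hbb-y (2.69 and 3.04) and Hbb-bh1 (1.22 and 1.10), and the adult Hbb-b2 (2.48 and 1.99) and Hba-a1 (1.16 and 1.27). Hbb-y read 14454 in Nkx2.5 and 2244 in Bra, and was well above background in the Bra cells on 1 of their 2 arrays. The beta globins are related in sequence, so signal may be shared between their probes, which was not examined. None of the blood transcription factors of the list was called. Gata1 had 0.10 and 0.15, Tal1 0.13 and 0.43, Klf1 0.27 and 0.49 and Runx1 0.04 and 0.27. Nfe2, an erythroid factor, had 0.58 directly and 1.65 through Rex1.

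Visceral endoderm, the nutritive layer of the yolk sac, makes many of the liver's secreted proteins. Of the 29 listed endoderm genes 5 were higher, against 0.354% of all named genes. These were Spink1, a trypsin inhibitor (2.15 and 2.61), Afp, alpha-fetoprotein (1.93 and 1.74), Ttr, transthyretin (1.73 and 1.55), and the apolipoproteins Apoc2 (1.36 and 1.56) and Apom (1.34 and 1.56). Spink1 read 20706 in Nkx2.5 and 4672 in Bra, and was called under all 11 other settings, some of which could not change its call, as for Myl7. The regulators of endoderm did not meet the rule, with Foxa2 at -0.06 and -0.40, Sox17 at 0.15 and 0.10 and Hnf4a at -0.16 and -0.11. Foxa1 was higher in both readings, by 1.33-fold in the smaller. Of the uncalled endoderm genes Cubn and Rbp4 came nearest to a higher call, at 1.95-fold and 1.67-fold in the smaller reading. Cer1, a Nodal and BMP antagonist of anterior endoderm, lay at -0.97 and -0.97, the nearest to a lower call in that list. Alb, albumin, had -0.11 and -0.08.

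Endothelial genes gave 0 calls among 22, a count that shares of 0.354% and 0.0802% over all named genes would mostly give. Of the 22 genes, 17 were above 0 in both readings, with medians of 0.20 and 0.29. Cldn5, a vascular tight junction gene, had 1.30 directly and 0.61 through Rex1, and Icam2 had 0.83 and 1.01. The epithelial list gave 0 calls among 19, which the same shares would mostly give. Its medians were higher, 0.28 and 0.44, led by plakoglobin, Jup (0.96 and 1.47), and the keratins Krt19 (0.90 and 1.46), Krt8 (0.69 and 0.68) and Krt18 (0.94 and 0.65). Summed over the list, normalised intensity on the direct array was 1.5 times higher in Nkx2.5 than in Bra for blood (243194 against 162215), 1.47 times for endoderm, 1.37 times for the epithelial genes and 1.19 times for endothelium. The same ratio was 1.64 for the thick filament, 1.55 for the thin filament and 0.994 over all named genes. Bright probes weigh most in such sums. Hbb-bh1 alone gave 29937 and 12836 to the blood sums, while the median log2 ratios of the blood list were 0.17 and 0.43. How much of any ratio comes from other cell types among the Nkx2.5 cells was not tested. All 21 blood genes and 29 endoderm genes stood well above background in the Nkx2.5 channel, and 21 and 28 did so in the Bra channel. Most named genes did so too, 14462 of 14959 in the Nkx2.5 channel and 14281 in the Bra channel. Nothing about the cells present is read from these counts.

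**Figure D3:**
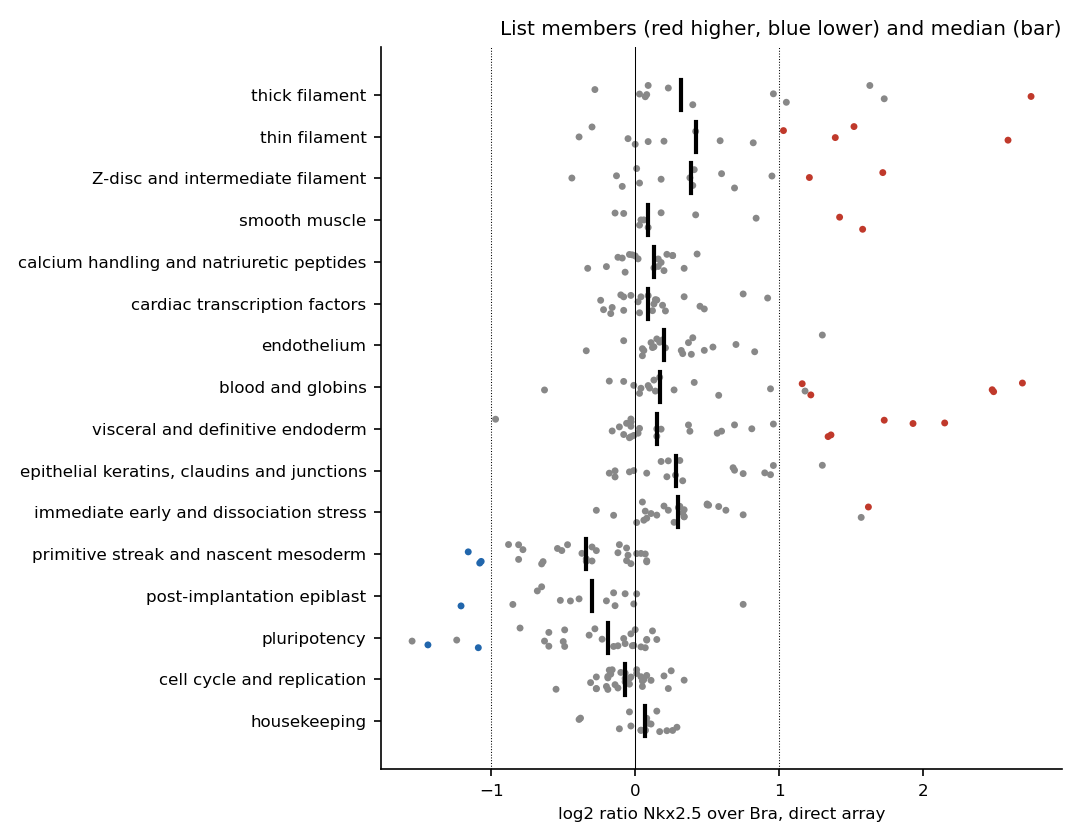
Direct log2 ratios of Nkx2.5 over Bra for the members of 16 gene lists, 1 point per gene, with red for higher and blue for lower calls and a bar at the list median; vertical jitter has no meaning. The thick filament list reaches furthest to the right, with Myl7 at 2.75, followed by blood and globins with Hbb-y at 2.69; the thick and thin filament medians are 0.32 and 0.42, and the primitive streak list lies to the left with a median of -0.34.

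Signals and matrix were represented by single genes. Tgfb2, the TGF-beta ligand of endocardial cushion formation, read 11770 against 3706 and had 1.67 and 1.60. It was the higher call among 40 genes of the BMP and TGF-beta pathways, against 0.354% of all named genes. The medians of that list were 0.07 and 0.09. Nrp1, a co-receptor for VEGF and semaphorins, had 1.73 and 1.43. Col4a1, a basement membrane collagen, was called at 1.62 and 1.06. It was the single call among 40 matrix and mesenchyme genes, against 0.354% of all named genes. Its partner Col4a2 had 0.59 and 0.30 on the brightest of its 4 probes and 1.04 and 1.62 on another. Single other probes of Col3a1 (1.31 directly) and Fbn1 (1.37 directly) also reached the limit in both readings, while the brightest probe of Col3a1 had 0.04 and 0.02 and that of Fbn1 0.41 and 0.00. Fibronectin, Fn1, had 0.28 and 0.75.

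The remaining leading genes belong to none of these groups. S100g, a small calcium-binding protein of intestine and uterus, had 2.06 and 2.28. St3gal6, a sialyltransferase, had 1.94 and 2.24. Dpp4, a cell surface peptidase, read 5904 against 1591 and had 1.89 and 1.74. Vmn1r23, a vomeronasal receptor gene, had 2.59 and 2.85, but its spot was marked Bad on the Bra over Rex1 array, and the authors' deposited table gives 1.88 directly and 0.64 through Rex1. Of 874 genes named as odorant, vomeronasal or taste receptors 3 were higher, Vmn1r23 with Olfr273 and Olfr716, a share close to the 0.354% of all named genes, and the list's medians were 0.02 and -0.01. Olfr273 and Mmd were not well above background in the Bra cells on the direct array and were so on 1 of the 2 arrays of these cells, so no fold is given for them. A spot marked Bad on at least 1 array of either reading was behind 5 of the 53 higher genes, among them Vmn1r23, Nme7, Mmd and Fam114a1, and 1 of the 12 lower ones, Sp5.

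Atf3, a stress-induced transcription factor, was the higher call among 26 immediate early and dissociation genes, at 1.62 and 2.43, against 0.354% of all named genes. Jun had 1.57 and 0.86 and Junb 0.51 and 0.81. The list's medians were 0.30 and 0.21, with 20 of 26 above 0 in both readings, and its summed intensity was 1.28 times higher in Nkx2.5 than in Bra. H19, an imprinted non-coding RNA, read 17579 against 5962, with 1.56 and 1.80, while Igf2, its imprinted neighbour, had 0.25 and 0.10. Eno3, the muscle form of enolase, was the call among 22 glycolysis genes, at 1.24 and 1.48, against 0.354% of all named genes. The common form Eno1 had -0.05 and -0.10.

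On the lower side, the streak and nascent mesoderm list held 3 of the 12 calls among 29 genes, against 0.0802% of all named genes. Its medians were -0.34 directly and -0.41 through Rex1, and 18 of the 29 lay below 0 in both readings. Fgf8, the FGF ligand that streak cells need to migrate, read 5154 in Nkx2.5 and 11558 in Bra, at -1.16 and -1.81. A second Fgf8 probe was called as well, at -1.03 and -1.05. Sp5, a Wnt target and zinc finger factor, had -1.07 and -1.35, with a spot marked Bad on the Nkx2.5 over Rex1 array. Mixl1, given above, was the third. T, Eomes (-0.88 and -0.94), Wnt8a (-0.81 and -0.84), Tdgf1, the Nodal co-receptor (-0.78 and -1.45), and Rspo3, a Wnt enhancer (-0.64 and -1.68), were on the same side without meeting the rule. Wnt3 had -0.51 and -0.57. Members at the other end of the list were Tbx6 (0.04 and 0.55) and Cdx1 (-0.03 and 0.68), which mark later, paraxial or posterior mesoderm.

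Fst, follistatin, which binds and blocks activin, read 6617 against 14692 and had -1.15 and -1.93. Fgf8 was the lower call among 22 FGF pathway genes, Fst among 40 BMP and TGF-beta genes and Sp5 among 38 Wnt genes. Over all named genes 0.0802% were lower, and nothing about these pathways is read from single calls. The Wnt effector Tcf7 had -0.41 and -0.31 and Lef1 had -0.71 and -0.48, with a spot marked Bad on the Nkx2.5 over Rex1 array for Lef1, while Axin2 had -0.16 and -0.04. Among 22 Notch genes 0 were called, a count that shares of 0.354% and 0.0802% over all named genes would mostly give.

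Pluripotency genes gave 2 lower calls among 28, against 0.0802% of all named genes. Nanog, a core pluripotency factor that is also present in the streak, read 2771 in Nkx2.5 and 7530 in Bra, at -1.44 and -2.60. Dppa2 read 2786 against 5919 and had -1.09 and -1.95. Gdf3 had -1.55 on the direct array but -0.65 through Rex1, and Rex2 had -1.24 and -0.71, so neither was called. Pou5f1 (Oct4) had -0.23 and -0.32, Sox2 -0.03 and -0.05 and Esrrb -0.07 and 0.21. In the list of 14 post-implantation epiblast genes Otx2, the anterior homeobox gene, was lower at -1.21 and -1.15 (5984 against 13843). Fgf5, the common epiblast marker, had -0.65 and -0.47, and the de novo methyltransferase Dnmt3b had -0.85 and -1.51. Cldn6 went the other way at 0.75 and 0.84.

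The other lower genes were of several kinds. Irf1, an interferon-induced transcription factor, read 3508 against 9503 (-1.44 and -1.59), and Gbp2, an interferon-induced GTPase, read 4854 against 10209 (-1.07 and -1.13). Irf1 was the call among 19 MHC class I and interferon genes, against 0.0802% of all named genes. The medians of that list were -0.04 and -0.14. Erap1, a peptidase that trims peptides for MHC class I, had -1.10 and -1.55. Mnd1, a meiotic recombination gene, had -1.09 and -1.91, and Henmt1, a methyltransferase of small RNAs in germ cells, had -1.15 and -1.66. In the authors' deposited table none of the 12 reached -1 directly: the direct values lay from -0.97 for Irf1 and -0.96 for Nanog to -0.70 for Sp5. The direction of the 12 was the same there, and the size limit was not met. With the deposited net signal in place of the background correction, 0 of the 12 were called as well.

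Set against the Rex1 stem cells, the 12 lower genes had followed different courses before the Nkx2.5 stage. These values share the Bra over Rex1 and Nkx2.5 over Rex1 arrays with the second reading and add no support to it. Erap1 stood at 2.82 in Bra over Rex1 and 1.27 in Nkx2.5 over Rex1, Sp5 at 2.73 and 1.37, Fgf8 at 2.36 and 0.55, Fst at 1.89 and -0.04 and Mixl1 at 1.13 and -0.38. Those genes were above the stem cell level in the Bra cells and lower again in the Nkx2.5 cells. That level was not 1 shared baseline. With channels scaled across arrays, Rex1 read 397 beside Nkx2.5 and 1022 beside Bra at Sp5, and 849 and 1828 at Fgf8. It read 1122 and 2586 at Fst and 2205 and 4230 at Mixl1. At Erap1 Rex1 was similar but low, at 604 and 615. Nanog was at 0.84 in Bra and -1.76 in Nkx2.5, so its signal in the Bra cells was above that of the stem cells. Henmt1 (-0.01 and -1.68) and Mnd1 (0.25 and -1.66) were at about the stem cell level in the Bra cells. Dppa2 was already lower in Bra, at -1.43, and at -3.38 in Nkx2.5. Of the contractile calls, Myl7 stood at 0.25 in Bra and 2.67 in Nkx2.5 and Tnnt2 at 0.12 and 2.46. Tnnc1 stood at -0.25 and 1.35 and Ankrd1 at -0.27 and 1.42. The Rex1 level was not shared for all of these either. It read 2253 beside Nkx2.5 and 831 beside Bra at Myl7, and 1701 and 912 at Tnnt2. At Tnnc1 it read 4176 and 3927, and at Ankrd1 1293 and 1216.

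**Figure D4:**
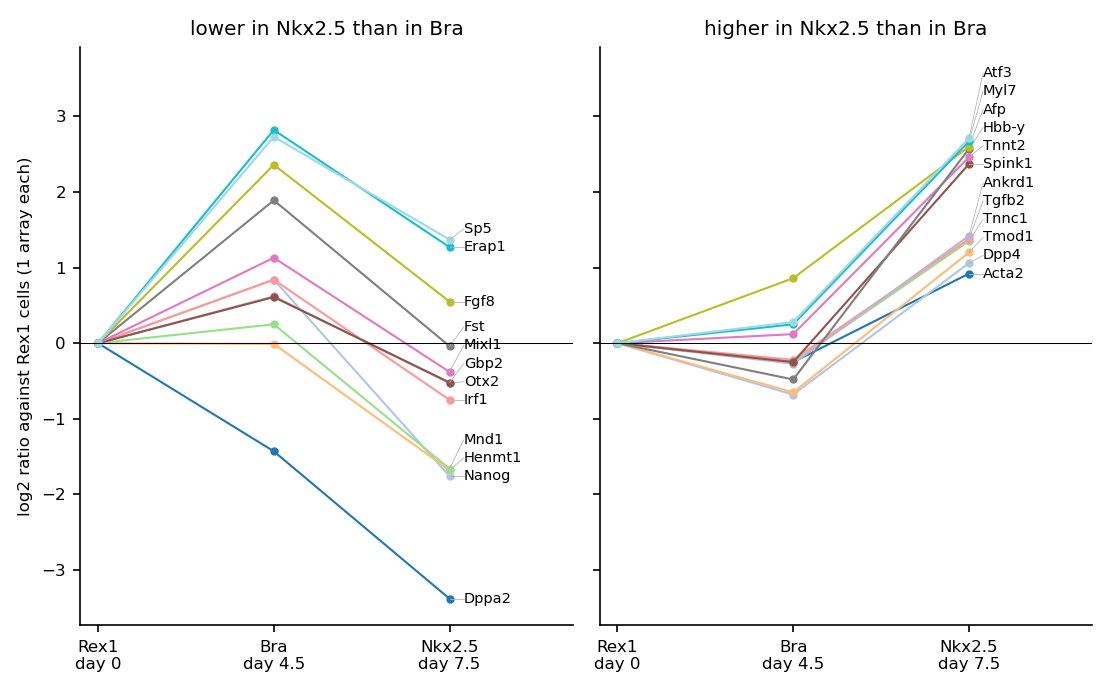
Log2 ratio against the Rex1 cells of day 0 for the Bra cells of day 4.5 and the Nkx2.5 cells of day 7.5. The 12 lower genes are on the left and 12 higher genes on the right. Each point past day 0 is 1 array, and the Rex1 signal of a gene could differ between these arrays. Sp5 and Fgf8 peak in the Bra cells at 2.73 and 2.36, Dppa2 ends at -3.38, and Myl7 and Tnnt2 are near 0 in Bra and at 2.67 and 2.46 in Nkx2.5.

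The array of Nkx2.5 over Flk1 shares the Nkx2.5 population, so its values are given side by side and not as support. Against the Flk1 cells, also of day 4.5, Myl7 had 1.76, Tnnt2 2.29, Hbb-y 1.85, Spink1 1.80 and Tgfb2 1.66. Ctla2a, a protease inhibitor gene called at 1.55 and 2.12 against Bra, had -0.34 against Flk1, and Gng11, a G protein subunit gene at 1.07 and 1.24, had -0.38. Zfp445, a zinc finger gene at 1.35 and 1.47, had 0.20. These 3 genes stood higher than in the Bra cells but were not 2-fold higher than in Flk1 cells of the same day. The same held, closer to the limit, for H19 (0.76), Olfr716 (0.78), Hbb-bh1 (0.94), Hba-a1 (0.95), Tcim (0.96) and Myl10 (0.97). On the lower side Sp5 had -0.25 against Flk1, Fgf8 -0.64, Mnd1 -0.79 and Nanog -0.95, while Fst had -1.62 and Mixl1 -1.45.

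Several lists gave no call, which with 0.354% of named genes higher and 0.0802% lower is also the count that lists of these sizes would mostly give, and nothing about the groups is read from it. Among 34 cell cycle and replication genes 0 were called, although 22 lay below 0 in both readings with medians of -0.07 and -0.18, and 7 lay above. The 25 genes of mitochondrial energy metabolism gave 0 calls, with medians of -0.01 and -0.07. Hox genes (34), neural ectoderm genes (23), paraxial mesoderm genes (15), epicardial genes (7), cell cycle inhibitors and p53 targets (19), DNA methylation and Polycomb genes (19) and ribosomal protein genes (79) also gave 0. The 17 housekeeping genes had medians of 0.07 and 0.02 and ranged from -0.39 to 0.29 on the direct array, which marks the scatter of genes taken as steady.

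The probes of 1 gene did not always agree, and the brightest probe stood for each gene in the counts above. Over 2768 named genes with at least 2 probes well above background in both channels, the direct ratios of a gene's probes had a median range of 0.185, and in 40 genes they differed by 1 or more. Another probe passed the rule in both readings for 22 named genes not counted as higher and for 5 not counted as lower. Several belong to the heart programme, and they were picked out after their values were seen. Myh6, the alpha myosin heavy chain, had 0.08 and 0.12 on its brightest probe and 1.69 and 3.29 on its other one, where Nkx2.5 read 4149 and Bra 1285. Tbx1, a T-box factor of the second heart field, had -0.04 and -0.15 on the brightest probe and 1.94 and 1.63 on the other, at 8842 against 2310. Ttn had 1.75 and 1.60 on another of its 7 probes, and Myl3 had 1.86 and 2.66 on its second probe. Globin and haem genes did the same, with Hba-x at 1.59 and 2.34 and Alas2, the first enzyme of haem synthesis in red cells, at 1.39 and 1.62.

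Calls made on the brightest probe could also rest on that probe. St3gal6 had 0.19 on its other probe, Cited4 had 1.54 and 0.38, Fbxw4 had 1.13 and -0.19, and Pakap ranged from -0.49 to 1.37 over 3 probes. The 4 probes of Col4a1 gave direct ratios from -0.24 to 1.62, of which 2 passed. On the lower side another probe of Dnmt3b passed at -1.04 and -2.38, and Psmb10, an immunoproteasome subunit, had -0.32 on its brightest and -1.60 on its other probe. Sequences of the probes were not analysed here.

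**Figure D5:**
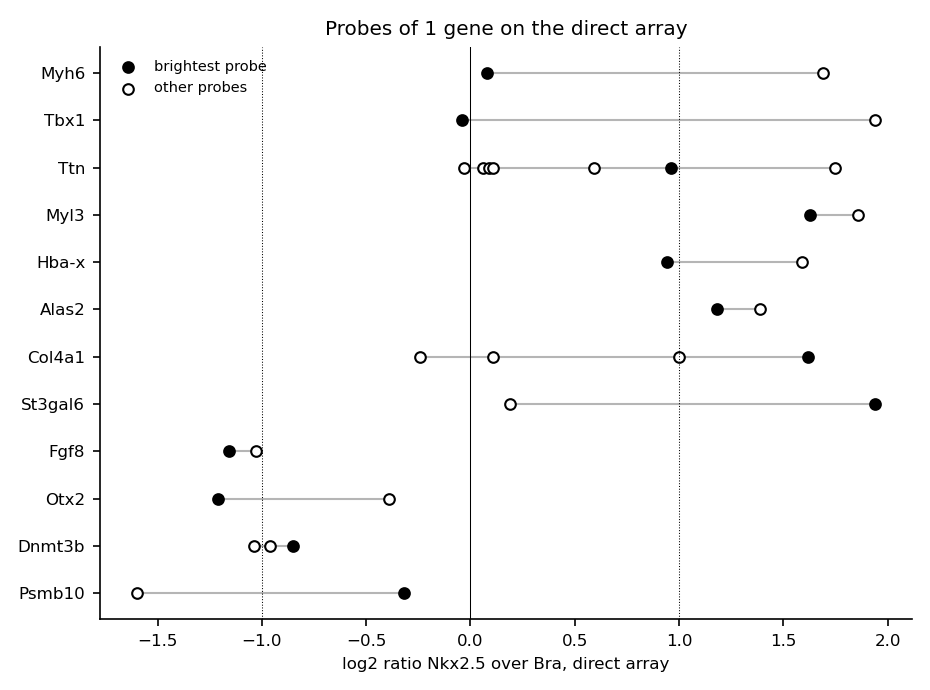
Direct log2 ratios of Nkx2.5 over Bra for all probes of 12 genes, with the brightest probe filled and the others open; dotted lines mark 1 and -1. The Myh6 probes lie at 0.08 and 1.69 and those of Tbx1 at -0.04 and 1.94, while the Fgf8 probes lie together at -1.16 and -1.03.

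The size of the largest ratios depended on what was read in the dimmer channel. Rex1 RNA was hybridised against Nkx2.5 on 1 array and against Bra on another, and with channels scaled across arrays its signal can be set side by side for the same probe. At the Hbb-bh1 probe Rex1 read 11722 beside the Nkx2.5 cells and 1181 beside the Bra cells, and the Bra cells read 10824 beside Nkx2.5 and 1333 beside Rex1. For Ttr the Rex1 signal was 4097 and 901, and for Myl7 it was 2253 and 831. At Fst it was 1122 beside Nkx2.5 and 2586 beside Bra, and at Sp5 397 and 1022. Rex1 signal was higher beside Nkx2.5 for 34 of the 53 higher genes (64.2%) and for 1 of the 12 lower genes (8.33%), against 50.9% of all named genes. Bra signal beside Nkx2.5 exceeded Bra signal beside Rex1 for 41 of the 53 higher genes (77.4%), against 53.4% of all named genes, and for 6 of the 12 lower genes (50%). At the lower genes the dimmer channel is that of Nkx2.5, and its signal was higher beside Bra than beside Rex1 for 11 of the 12 (91.7%), against 50.8% of all named genes. For Fst it was 5028 and 1094, for Mixl1 5829 and 1698 and for Fgf8 3864 and 1243. The called genes were chosen by ratios of these same signals, so the shares are not independent of the call rule and nothing is concluded from them. At the probes named here the dimmer channel was not the same from array to array, and the labels do not say whether the RNA was. A fold such as the 2.33 of Hbb-bh1 describes this array, and its cause was not tested.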

How the data were processed

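RNA of 4 cell populations was amplified as amino allyl RNA, coupled to Cy3 or Cy5 and hybridised in pairs on 5 arrays, per the labels' protocols. Per the file headers, the scanner output gives for every spot and channel an intensity as median signal with its background, and the deposited ratio is Cy5 over Cy3. The authors' deposited series table holds log2 values that equal the log2 of this ratio minus 1 constant (-0.0115 on the direct array, column median -0.00732), which settled scale and direction. The scanner software and the build were not given in the sources used here.

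Foreground was rebuilt, corrected with normexp (offset 50) and normalised array by array with loess that ignored control spots (R 4.3.3, limma 3.58.1). Later steps used Python 3.11.15. Spots marked Bad were kept. Channels of different arrays were set side by side after Aquantile scaling. Gene names came from RefSeq's table for GRCm38.p6, used for names, with 8056 named by accession, 5226 by symbol, 5081 by synonym and 558 by the files' name, while 9924 had no name. Each gene was represented by its brightest probe. Of 685 listed genes 654 were measured, in 32 lists. The call rule was checked on simulated data with the same error for every gene and changed genes set above background. That check does not cover the wider gap of dim genes.

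The comparison, the lists and the rules were chosen with earlier results of these data known. Genes named were the sort markers and Tnnt2, Myl7 and Mixl1, the 10 highest and 10 lowest called genes, ranked by the smaller reading, among those with both channels above background, up to 5 called dim genes in each direction, and the called members of each list described. List members that were not called, second probes and other called genes were named after their values were seen. A gene that the naming rule also took is withheld and not reported here. Promoter windows and their coordinates came from RefSeq in the same build.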

Additional observations from a re-analysis of the deposited data

How the results depend on the processing

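No setting tried reversed the direct value of the 3 list medians or of a called gene, but the authors' deposited table put the route through Rex1 on the other side of 0 for Nme7 (-0.12) and Fam114a1 (-0.71). Without background correction 3 genes were higher and 0 lower, the thick, thin and streak list medians were 0.11, 0.20 and -0.12, and the gap between readings had an SD of 0.101. With the net signal as deposited 3 were lower, the streak median was -0.25 and the gap 0.736. The authors' deposited table gave 30 higher and 3 lower, a thick filament median of 0.23, a streak median of -0.26 and a gap of 0.347. A second reading through Flk1 gave 20 lower and a gap of 0.40, the least-squares estimate over all 5 arrays 83 higher and 27 lower, the direct array alone 25 lower, and a limit of 1.5-fold 144 higher and 87 lower. The gap was 0.391 with an offset of 0, 0.367 with both populations well above background and 0.367 with the mean of a gene's probes, which gave a thick filament median of 0.45. Leaving out spots marked Bad gave 0.371 and a thick filament median of 0.40. Subtracting the median of the negative control spots, a setting chosen after seeing the data, gave 54 higher and 9 lower, of which 42 and 4 were among the 53 and 12, and a gap of 0.394. The causes were not tested. No paired analysis was possible because each pair of populations was hybridised once. What limits the values is 1 array per pair, signal close to background in dim genes, and dyes that were never exchanged.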

Other observations

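Several genes called higher belong to transport and metabolism rather than to the groups above. Slc39a8, a zinc and manganese importer, read 6100 in the Nkx2.5 cells and 2011 in the Bra cells, with log2 ratios of 1.60 directly and 1.92 through Rex1. Atp1b1, the beta subunit of the sodium pump, had 1.54 and 1.57, and against the Rex1 cells it stood at -1.48 in Bra and 0.09 in Nkx2.5. Cdo1, which breaks down cysteine, followed the same kind of course, at -1.06 in Bra and 1.04 in Nkx2.5 over Rex1. Gyg, the primer of glycogen synthesis, had 1.27 and 1.45. Svil, an actin-binding protein of muscle attachment sites, had 1.17 and 1.62, and the gut hormone gene Pyy had 1.17 and 1.29.

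Ctsh and Clu were picked, after their values were seen, from the genes whose other probes met the rule. Ctsh, a lysosomal protease, had 1.18 and 0.68 on its brightest probe and 2.02 and 2.71, and 2.10 and 1.88, on the others. Clu, the secreted chaperone clusterin, had 0.13 and 0.09 on the brightest and 2.07 and 1.51 on the other. Among 9840 transcripts without a gene name 14 were higher and 3 lower by the same rule, with direct log2 ratios from -2.04 to 2.88 over all of them.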
